A study of Mus musculus with 8 samples.

Results

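The cytochrome P450 genes were taken as every gene whose symbol is Cyp followed by a family number, a subfamily letter and a member number, and that had a probe set naming it alone. They numbered 70 of the 18193 genes on the array, with 93 probe sets, and 31 of them passed the filter on low signal among 10916 genes tested. The 4 Bmi1 arrays came from Ink4a-Arf-null mouse hepatoblasts transduced with Bmi1, a gene of Polycomb repressive complex 1. The 4 Control arrays came from hepatoblasts of that genotype transduced with EGFP, so both groups lack the Ink4a-Arf locus and both carry an introduced gene. All cells were sorted as Dlk-positive from liver at embryonic day 14.5, transduced after 12 to 18 h in culture, grown with HGF (50 ng/ml) and EGF (20 ng/ml), and purified by flow cytometry on day 28. The series describes 4 independent experiments, numbered 1 to 4 in both groups, and RNA equal to 10000 cells was amplified for each array. The sources used here do not give the promoter that drove the introduced genes or how many embryos were pooled.

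Cytochrome P450 enzymes are heme proteins that insert an oxygen atom into their substrates, using electrons passed on from NADPH by partner proteins. Families 1 to 3 mostly act on drugs, toxins and steroids, family 4 on fatty acids, and higher families on bile acids, sterols, steroid hormones, retinoids and vitamin D. Hepatocytes are the main site of the drug-handling enzymes, and many of these genes come on around and after birth under nuclear receptors and liver-enriched transcription factors. Hepatoblasts are fetal precursors that can become hepatocytes or bile duct cells.

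Values are signal intensities, and each array was scaled by the authors to one common mean. The introduced gene did not read higher under its own label: its brighter probe set averaged 279 ± 60.01 on Bmi1 arrays and 518 ± 218 on Control arrays (SD, n = 4 each). It was lower on the Bmi1 array in all 4 pairs, and where its probes lie relative to the introduced sequence is not known here. Every direction below therefore follows the labels, and "Bmi1" and "Control" mean the arrays so labelled. The fetal liver marker Afp, an alpha-fetoprotein gene, averaged 4932 ± 1218 on Bmi1 arrays and 5140 ± 1083 on Control arrays, and all 4 hepatoblast markers were above background on every array. Replicates 1 and 2 stood apart from replicates 3 and 4, with a hybridisation control at 198 to 274 on the first 4 arrays and at 97.0 to 119 on the other 4. Control 1 had a 3′ to 5′ ratio of 3.10 for Gapdh, a sign of RNA quality, against 1.65 to 1.96 on the other 7 arrays.

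The promoters of the genes that the results turn on are shown here, since they allow the Cyp3a genes, all lower on Bmi1 arrays, to be set beside Cyp2f2, Cyp1b1 and Cyp46a1. RefSeq promoters (GRCm38.p6, 250 bases before and 50 after the gene start) matched 51 of the 70 genes by symbol, 26 of them tested. Sequences run 5′ to 3′ along the gene, on the minus strand for Cyp3a11 (chr5:145879805-145880104), Cyp3a44 (chr5:145805825-145806124), Cyp3a25 (chr5:146009569-146009868) and Cyp1b1 (chr17:79715012-79715311). Cyp2f2 (chr7:27119705-27120004) and Cyp46a1 (chr12:108334066-108334365) lie on the plus strand. Capitals mark matches, on either strand and anywhere in the window, to letters chosen with the array values known. The letters were an HNF4 site (CAAAGTCCA), an HNF1 site (its palindromic consensus), a C/EBP site (TTGCNNAA) and a FOXA site (TGTTTAC). The others were TATAAA, a nuclear receptor recognition element (AGGTCA) and an aryl hydrocarbon receptor core (GCGTG). The marked TATAAA starts at -234 from the gene start in Cyp3a11 and at -122 in Cyp3a44, and is not taken as a core promoter box.
Cyp3a11: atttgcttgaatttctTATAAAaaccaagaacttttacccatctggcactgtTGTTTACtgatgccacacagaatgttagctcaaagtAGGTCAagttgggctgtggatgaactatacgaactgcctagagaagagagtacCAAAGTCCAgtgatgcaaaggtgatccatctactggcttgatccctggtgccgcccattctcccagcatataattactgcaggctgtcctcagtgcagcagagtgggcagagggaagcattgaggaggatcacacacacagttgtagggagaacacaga
Cyp3a44: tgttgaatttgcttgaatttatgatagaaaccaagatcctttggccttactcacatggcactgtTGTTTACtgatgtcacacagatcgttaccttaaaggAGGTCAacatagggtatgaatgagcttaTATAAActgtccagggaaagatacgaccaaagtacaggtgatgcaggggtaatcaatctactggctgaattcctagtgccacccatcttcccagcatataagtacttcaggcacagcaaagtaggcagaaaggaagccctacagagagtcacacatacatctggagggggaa
Cyp3a25: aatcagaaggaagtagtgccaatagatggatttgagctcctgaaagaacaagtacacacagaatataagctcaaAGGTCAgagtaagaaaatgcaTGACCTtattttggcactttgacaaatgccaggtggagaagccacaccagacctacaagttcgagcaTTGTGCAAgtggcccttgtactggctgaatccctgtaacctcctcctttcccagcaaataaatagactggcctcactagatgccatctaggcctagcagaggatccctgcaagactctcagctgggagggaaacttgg
Cyp2f2: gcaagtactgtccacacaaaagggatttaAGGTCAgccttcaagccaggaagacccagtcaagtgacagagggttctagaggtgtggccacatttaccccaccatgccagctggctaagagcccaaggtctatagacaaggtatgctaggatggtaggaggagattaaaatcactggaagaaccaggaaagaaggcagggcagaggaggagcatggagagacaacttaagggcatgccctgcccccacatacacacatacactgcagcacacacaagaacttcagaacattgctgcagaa
Cyp1b1: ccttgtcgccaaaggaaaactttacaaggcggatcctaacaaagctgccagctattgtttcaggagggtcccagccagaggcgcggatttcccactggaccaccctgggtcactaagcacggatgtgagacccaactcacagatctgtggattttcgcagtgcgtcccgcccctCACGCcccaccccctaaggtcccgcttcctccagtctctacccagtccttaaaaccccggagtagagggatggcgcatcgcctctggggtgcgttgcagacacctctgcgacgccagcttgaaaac
Cyp46a1: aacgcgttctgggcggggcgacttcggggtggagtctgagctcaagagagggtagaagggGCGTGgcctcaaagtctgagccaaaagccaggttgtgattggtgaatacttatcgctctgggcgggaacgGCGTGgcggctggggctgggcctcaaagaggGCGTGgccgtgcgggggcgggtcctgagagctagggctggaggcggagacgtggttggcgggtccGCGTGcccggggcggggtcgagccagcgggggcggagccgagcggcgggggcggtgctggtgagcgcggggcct

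The HNF4 letters were found in 4 of the 26 promoters of tested P450 genes (Cyp3a11, Cyp3a16, Cyp2c68 and Cyp2c70), against 0.475% of 32851 promoters. The FOXA letters were in 4 (Cyp3a11, Cyp3a16, Cyp3a44 and Cyp2j5), against 3.65% of all promoters, and TATAAA was in 12, against 13.6%. AGGTCA was in 7 of the 26, against 16.3% of all promoters, GCGTG in 7, against 32.4%, TTGCNNAA in 2, against 10.8%, and the HNF1 site in 0, against 0.00913%. These matches describe letters in a short window and are not measured binding sites. The shares are of all 32851 promoters, not only those of tested genes, and enrichment was not tested. Carriers such as Cyp3a11, Cyp3a16 and Cyp3a44 are close relatives with similar promoters, so they are not separate cases. Of the HNF4 carriers, Cyp3a11 was called lower with the replicate number as a block, as given below. Cyp3a16, Cyp2c68 and Cyp2c70 were not. Aligned to the Cyp3a11 promoter, that of Cyp3a16 was identical at 82.2% of aligned positions, that of Cyp3a44 at 79.2%, Cyp3a25 at 65.9%, Cyp3a13 at 64.7% and the unrelated Cyp2f2 at 62.9%. Gaps are left out of these shares: 286 positions were aligned for Cyp3a16 and 245 for Cyp2f2.

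Most P450 genes stood lower on Bmi1 arrays. With no filter on low signal, 55 of all 70 had a lower mean on the log2 scale, beside 55.9% of all 18193 genes, and the median difference was -0.48, beside -0.04 over all genes. Over the 31 that passed the filter, 28 were lower, beside 54.1% of all tested genes, and the median was -1.13, beside -0.03. The filter takes the mean of both groups, and 8 of the 31 lay under its limit on Bmi1 arrays and passed through their Control signal: Cyp2a12, Cyp2f2, Cyp2j5, Cyp3a44, Cyp3a16, Cyp2c29, Cyp26a1 and Cyp1a1. Cyp46a1 passed through its Bmi1 signal. Counts and medians over tested genes, here and by family, are therefore descriptions of those that passed. The other 22 were at or over the limit in both groups. In 16 of the 31 the difference was -1 or below, beside 2.46% of all tested genes, and in 1 gene, Cyp46a1, it was 1 or above, beside 1.48%. All differences here are of log2(signal + 3.78), Bmi1 minus Control, centred on the median gene of each array, so folds of dim genes are understated. In these bulk samples fewer cells of a type and less RNA per cell cannot be told apart.

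Whether single genes passed a test depended on the use of the replicate numbers. In limma without a block, with Benjamini-Hochberg adjustment over all tested genes, 0 P450 genes passed the threshold of 0.05 in either direction, beside 0.055% of genes lower and 0.11% higher. At an unadjusted p under 0.05 that model called 13 P450 genes lower, beside 4.32% of all tested genes, and 1 higher, beside 3.48%. With the replicate number as a block, at an unadjusted p under 0.05, 20 P450 genes were lower, beside 10.6% of all tested genes, and 2 higher, beside 7.42%. After adjustment in that model, 9 P450 genes fell, beside 1.95% of all tested genes, and 0 rose, beside 1.36%. These 9 were Cyp3a11, Cyp3a25, Cyp3a44, Cyp2a12, Cyp2f2, Cyp2j5, Cyp2d26, Cyp2d10 and Cyp1b1, all in families 1 to 3. Of the 9, 4 (Cyp2a12, Cyp2f2, Cyp2j5 and Cyp3a44) had passed the filter on low signal only through their Control signal. With no level filter the block called the same 9 of the 70 lower, beside 0.803% of all genes. Of P450 genes, "fell" below refers only to these 9 and to the model with the replicate block; of other genes it is used with the model named, and the adjusted p of the unblocked fit comes before that of the blocked fit. A lower value in all 4 pairs was found in 20 P450 genes, beside 15.8% of all tested genes, and a higher value in all 4 in 2 (Cyp2s1 and Cyp46a1), beside 11.4%. The groups did not overlap in 4 P450 genes, Cyp3a11, Cyp3a25, Cyp2f2 and Cyp2d26, each lower on Bmi1 arrays, beside 2.91% of all tested genes. No P450 gene lay wholly above the Control arrays, beside 2.42%.

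**Figure D1:**
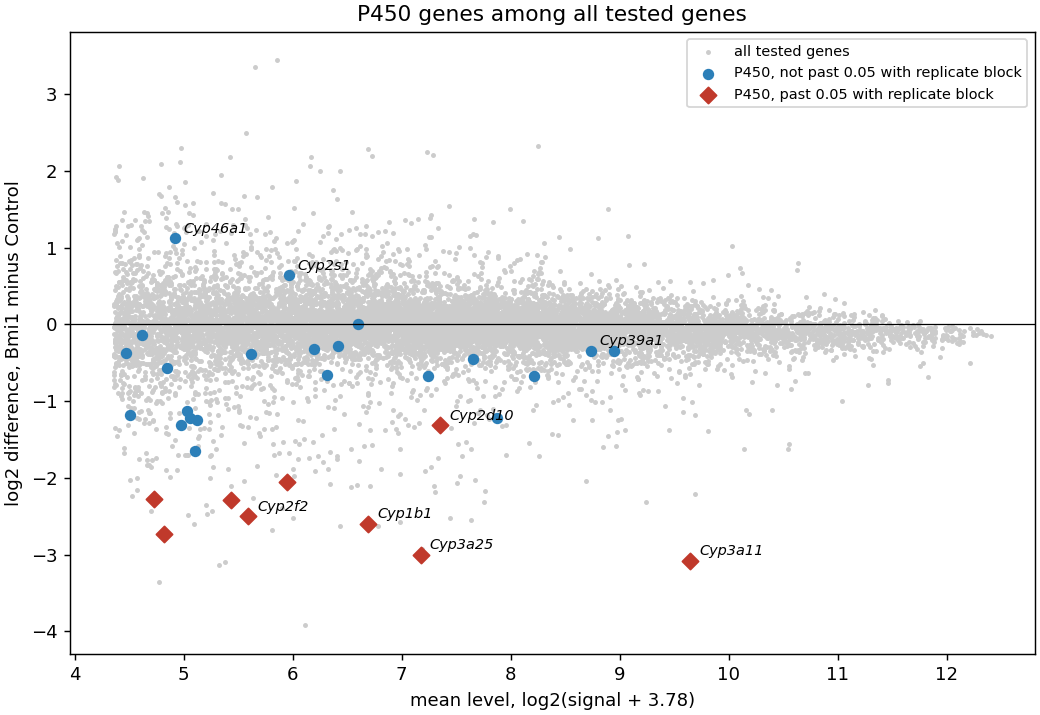
Difference of each of 10916 tested genes (Bmi1 minus Control, log2) against its mean level on 8 arrays (log2 of signal + 3.78). Grey points are all tested genes, blue circles the P450 genes that did not pass an adjusted p of 0.05 with the replicate block, and red diamonds the 9 that did. The diamonds lie at differences of -1.31 to -3.08, and Cyp46a1 stands at 1.13.

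Family 3 is the Cyp3a subfamily, whose enzymes clear many drugs and also hydroxylate steroids and bile acids. All 5 of its measured genes were tested, and all 5 were lower on Bmi1 arrays in every pair, beside 15.8% of all tested genes. With the replicate block 3 fell, beside 1.95% of all tested genes, and the family median was -2.29. Cyp3a44 and Cyp3a16 passed the filter on low signal through their Control signal. Cyp3a11, the main such enzyme of mouse liver and a target of the pregnane X receptor, read 481, 591, 90.9 and 229 on Bmi1 arrays 1 to 4, against 2656, 2099, 2772 and 1702 on Control arrays 1 to 4. Every Bmi1 array was below every Control array, and Bmi1 3 was the lowest of all. The mean was 348 ± 229 on Bmi1 arrays and 2308 ± 499 on Control arrays (SD, n = 4 each). On the log2 scale of the fit Cyp3a11 was 8.45-fold lower, at a difference of -3.08 with SE 0.53. That fold compares means of logs and is not the ratio of the 2 mean signals. The limma adjusted p was 0.0657, or 0.0141 with the block.

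Cyp3a25, a testosterone-hydroxylating enzyme of liver and intestine, had the next largest difference. Its signal was 45.0, 188, 14.7 and 39.3 on Bmi1 arrays 1 to 4, against 604, 532, 285 and 266 on Control arrays 1 to 4. The groups did not overlap, with Bmi1 2 the highest of its group and Controls 1 and 2 the highest of theirs. The gene was 8.02-fold lower (log2 difference -3.004, SE 0.64, limma adjusted p 0.134, or 0.0114 with the block). Cyp3a44, a form described as female-biased in mouse liver, read 18.7, 55.9, 4.21 and 11.4 on Bmi1 arrays, against 145, 145, 66.1 and 45.8 on Control arrays. Bmi1 2 was above Control 4, while each Bmi1 array was below the Control array of its number. The value on Bmi1 3 was barely above that array's background of 4.09. The size of the difference in pair 3 therefore depends on the constant added before the log. The difference was -2.29 (SE 0.63, limma adjusted p 0.253, or 0.0155 with the block).

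The remaining Cyp3a genes were lower without passing either test. Cyp3a16, known as a fetal form, averaged 24.3 ± 24.1 on Bmi1 arrays and 48.5 ± 22.6 on Control arrays (SD, n = 4 each), a log2 difference of -1.31 with a 95% interval of -2.78 to 0.16. On Bmi1 3 it read 4.11, also barely above the background of that array. Cyp3a13, which is also expressed outside the liver, averaged 185 ± 139 on Bmi1 arrays and 378 ± 172 on Control arrays, a difference of -1.22 with an interval of -2.36 to -0.08. With the replicate block their limma adjusted p was 0.0809 and 0.0511 in that order, and Cyp3a13 passed in 2 of the 12 settings with the block. Cyp3a16, Cyp3a44, Cyp3a11 and Cyp3a25 start within 540 kb of each other on chromosome 5, and Cyp3a13 starts 7.55 Mb from Cyp3a16. The promoters of Cyp3a16 and Cyp3a44 were identical at 95.9% of aligned positions, which says nothing of the probes. Probe sequences were not used here, so signals of close relatives in the Cyp3a, Cyp2c and Cyp2d subfamilies may be shared. This was not tested. A further 4 probe sets that name several genes, with a P450 symbol among them, were left out, like all 932 probe sets with several symbols.

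**Figure D2:**
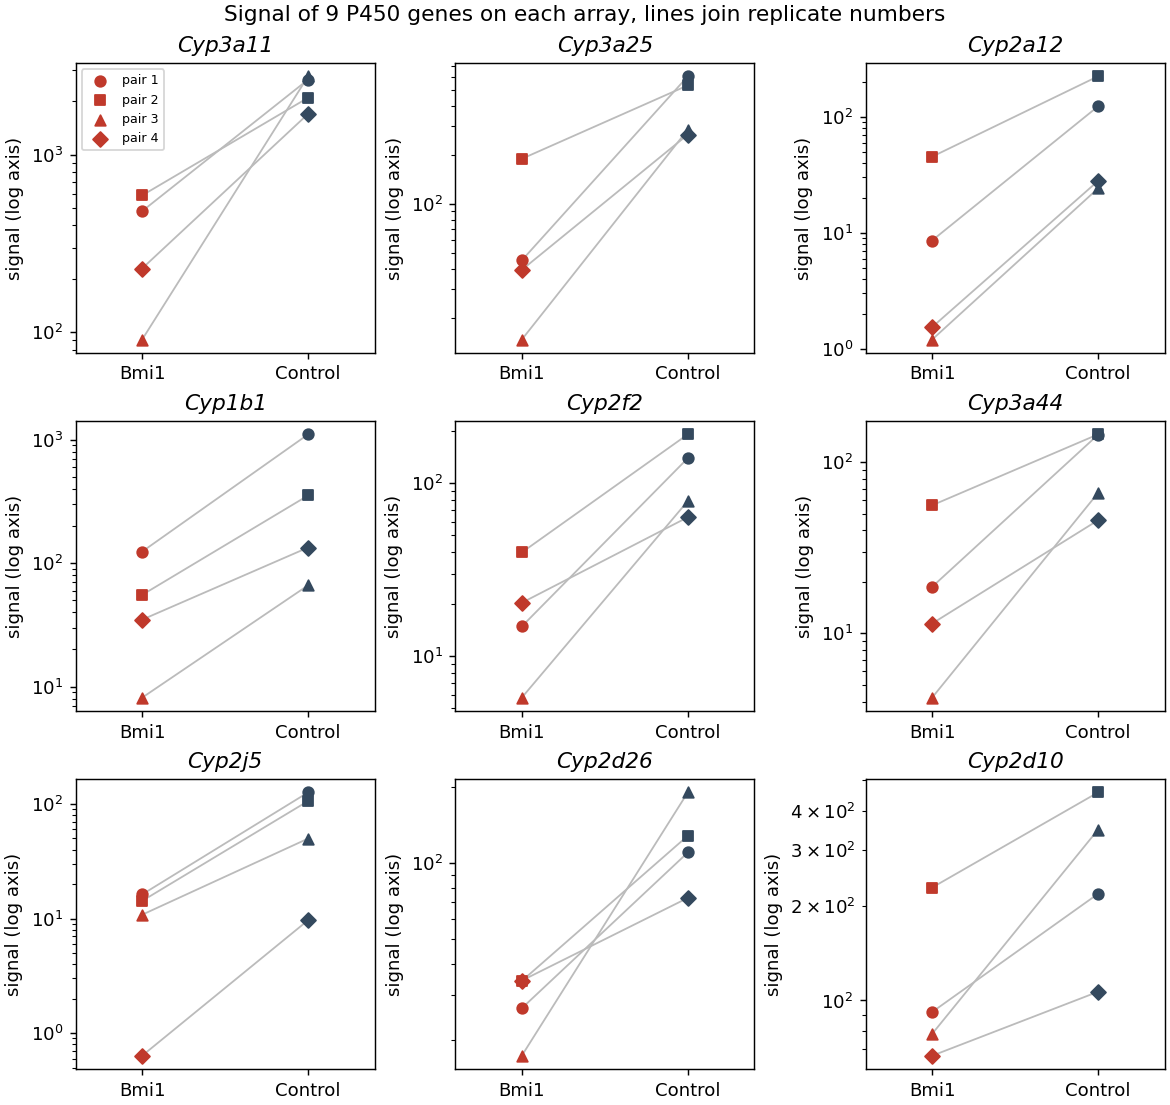
Signal of the 9 P450 genes past an adjusted p of 0.05 with the replicate block, on a log axis, with Bmi1 arrays (red) left of Control arrays (dark blue); marker shapes and grey lines join arrays of the same replicate number. Every line rises to the right; for Cyp3a11 the Bmi1 arrays span 90.9 to 591 and the Control arrays 1702 to 2772.

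Family 2 is the largest, with 35 genes measured, 12 tested and a median of -1.27. Of the 12, 11 were lower, beside 54.1% of all tested genes, and 5 fell, beside 1.95%. Among those that fell, Cyp2a12, Cyp2f2 and Cyp2j5 passed the filter on low signal through their Control signal. Cyp2f2, which activates naphthalene in airway cells and marks periportal hepatocytes, read 14.8, 39.8, 5.75 and 20.3 on Bmi1 arrays 1 to 4. On Control arrays it read 139.6, 192, 78.9 and 63.6. The groups did not overlap, and Bmi1 3 was again the lowest array. Cyp2f2 fell 5.65-fold (log2 difference -2.50, SE 0.51, limma adjusted p 0.113, or 0.0108 with the block).

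Cyp2a12, a liver hydroxylase of steroids and bile acids, starts 90.9 kb from Cyp2f2 on chromosome 7. It read 8.58, 45.2, 1.20 and 1.54 on Bmi1 arrays, against 123, 223, 24.2 and 28.0 on Control arrays. The groups overlapped through Bmi1 2, the only Bmi1 array above background. In the other 3 pairs the Bmi1 value was below background, so the size of the difference there depends on the constant added before the log. The log2 difference was -2.73 (SE 0.90), with a limma adjusted p of 0.384, or 0.00629 with the block. Cyp2s1, an enzyme of epithelia outside the liver, starts 1.3 Mb from Cyp2f2 on the same chromosome and went the other way. It averaged 79.8 ± 27.6 on Bmi1 arrays and 50.5 ± 27.5 on Control arrays (SD, n = 4 each), a difference of 0.64 with a 95% interval of -0.25 to 1.54 that passed neither test (limma adjusted p 0.841, and 0.168 with the block).

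The human counterpart of the Cyp2d subfamily handles many drugs. All 4 tested Cyp2d genes were lower, beside 54.1% of all tested genes, and 2 fell, beside 1.95%. Cyp2d26 read 26.6, 34.2, 17.3 and 34.3 on Bmi1 arrays, against 110.4, 129, 191 and 72.9 on Control arrays. The groups did not overlap, and its limma adjusted p without the block, 0.0532, was the smallest of the P450 genes. With the block it was 0.0203, at a difference of -2.06 (SE 0.33). Cyp2d10, which starts 387 kb from Cyp2d26 on chromosome 15, read 91.9, 228, 78.3 and 66.8 on Bmi1 arrays, against 218, 457, 349 and 107 on Control arrays. These groups overlapped, and the difference was -1.31 (SE 0.50, limma adjusted p 0.526, or 0.0279 with the block). Cyp2d9, a male-biased testosterone hydroxylase, differed by -1.22 and Cyp2d22 by -0.28, with limma adjusted p-values of 0.0573 and 0.604 with the block; Cyp2d9 passed in 3 of the 12 settings with the block.

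The Cyp2j enzymes make epoxides from arachidonic acid. Cyp2j5, a kidney and liver form, read 16.2, 14.2, 10.8 and 0.635 on Bmi1 arrays, against 126, 106, 49.9 and 9.68 on Control arrays. Control 4 was below 3 of the Bmi1 arrays, so the groups overlapped, and Bmi1 4 was below background, where the size of the difference depends on the constant added before the log. Cyp2j5 passed the filter on low signal only through its Control signal. The log2 difference was -2.27 (SE 0.77, limma adjusted p 0.409, or 0.0115 with the block). Averaging its probe sets instead of taking the brightest gave an adjusted p of 0.0597 with the block. Cyp2j6 differed by -1.13 with a 95% interval of -1.97 to -0.30, and its adjusted p of 0.0666 with the block did not pass.

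The 3 tested Cyp2c genes were lower, beside 54.1% of all tested genes, and passed neither model. Cyp2c29, an epoxygenase of adult mouse liver, differed by -1.65 with a 95% interval of -3.57 to 0.27. Cyp2c70, the rodent enzyme that makes muricholic bile acids, averaged 66.0 ± 25.6 on Bmi1 arrays and 97.4 ± 30.6 on Control arrays (SD, n = 4 each), a difference of -0.65. Cyp2c68 averaged 186 ± 80.8 on Bmi1 arrays and 239.6 ± 95.8 on Control arrays, a difference of -0.45 with an interval of -1.26 to 0.35. Their limma adjusted p-values with the block were 0.110, 0.0953 and 0.549 in that order, and Cyp2c29 passed in 1 of the 12 settings with the block, at 0.0383.

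In family 1, Cyp1b1 fell and Cyp1a1 did not pass. Cyp1b1 oxidises oestrogens and polycyclic aromatic hydrocarbons and is known mainly from mesenchymal and other cells outside the hepatocyte lineage. It read 124, 55.3, 8.13 and 34.8 on Bmi1 arrays 1 to 4, against 1104, 353, 66.2 and 134 on Control arrays. Control 3 was below Bmi1 1, so the groups overlapped, and Control 1 was by far the highest array; the 4 pairs differed by -1.86 to -3.21. The log2 difference was -2.60 (SE 0.93), with a limma adjusted p of 0.465, or 0.00543 with the block. A second Cyp1b1 probe set differed by -2.28 (adjusted p 0.820, or 0.0280 with the block), and the last was at background on all 8 arrays. Cyp1a1, the classical target of the aryl hydrocarbon receptor, averaged 17.4 ± 7.74 on Bmi1 arrays and 28.5 ± 24.2 on Control arrays (SD, n = 4 each), a difference of -0.37 with a 95% interval of -1.71 to 0.97.

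Markers of stellate cells and fibroblasts were examined beside Cyp1b1. All 10 of them were tested and 9 were lower on Bmi1 arrays, beside 54.1% of all tested genes, with a median of -1.01. With the replicate block 1 fell, Acta2 (smooth muscle actin, adjusted p 0.0405), beside 1.95% of all tested genes, and 1 rose, Reln (reelin, adjusted p 0.00780), beside 1.36%. In the unblocked limma fit 0 passed, while 1 was lower and 1 higher at an unadjusted p under 0.05, beside 4.32% and 3.48%. Their summed signal was 4350, 7899, 5798 and 3769 on Bmi1 arrays 1 to 4, against 14905, 8518, 5788 and 4867 on Control arrays. It was highest on Control 1, like Cyp1b1, and Control 1 is the array with the Gapdh ratio of 3.10. Much of the sum is Vim, the vimentin gene, named here after its values were seen. Without Vim the sum was 1198 to 4937 on Bmi1 arrays and 1847 to 11560 on Control arrays, lower on the Bmi1 array in every pair, and in pair 3 the list's median difference was -0.50. In replicates 3 and 4 alone the list's median difference was -0.13, beside -2.25 for Cyp1b1, and in replicates 1 and 2 these were -1.81 and -2.95. The summed signal of 5 mesothelial markers was 44.1 to 153 on Bmi1 arrays and 107 to 561 on Control arrays. Of the 561, on Control 1, 273 came from Gpm6a, which did not pass the filter and is named after its values were seen. Of the 5 mesothelial markers 3 were tested, all lower, beside 54.1% of all tested genes. Msln, mesothelin, fell in limma with the block (adjusted p 0.0493), beside 1.95% of all tested genes. The part of these markers in the Cyp1b1 result was not tested.

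**Figure D3:**
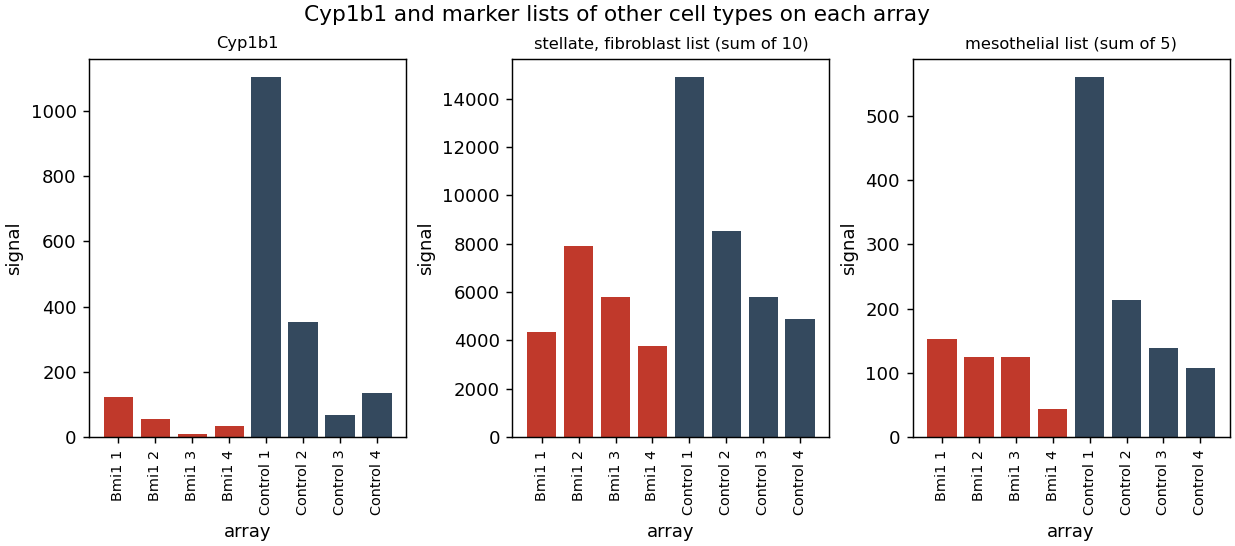
Signal on each array for Cyp1b1, for the sum of 10 stellate and fibroblast markers, and for the sum of 5 mesothelial markers, with the 4 Bmi1 arrays (red) left of the 4 Control arrays (dark blue); bars start at 0. Control 1 is the highest bar in each panel, and for Cyp1b1 each Bmi1 bar is below the Control bar of its number.

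Family 4 enzymes add hydroxyl groups to the ends of fatty acids and eicosanoids. Of 11 genes, 5 were tested, and the median was -0.32. Of the 5, 4 were lower, beside 54.1% of all tested genes, and 0 passed either limma fit. In the unblocked fit 1 (Cyp4a31) was lower at an unadjusted p under 0.05, beside 4.32% of all tested genes. Cyp4a31, of the subfamily induced by peroxisome proliferators, averaged 20.9 ± 10.4 on Bmi1 arrays and 53.1 ± 24.2 on Control arrays (SD, n = 4 each), a difference of -1.25 with a 95% interval of -2.18 to -0.31. Cyp4v3 averaged 253 ± 100.1 on Bmi1 arrays and 370.1 ± 93.1 on Control arrays, a difference of -0.67 with an interval of -1.38 to 0.03. Cyp4f16 differed by -0.32, Cyp4b1 by -0.13 and Cyp4f13 by 0.01, and the 95% intervals of all 3 held 0. The difference between families was not tested.

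Families 7, 8, 27, 39 and 46, which hold mostly enzymes of bile acid synthesis and sterol turnover, gave no call. They also hold Cyp27b1, an enzyme of vitamin D metabolism, which was not tested. Of 7 genes 4 were tested, with a median of -0.46. Of the 4, 3 were lower, beside 54.1% of all tested genes, and 0 passed either limma fit. At an unadjusted p under 0.05 the unblocked fit had 1 lower, beside 4.32% of all tested genes, and 1 higher, beside 3.48%. Cyp7a1, the rate-limiting enzyme of bile acid synthesis, read 20.1, 44.7, 10.4 and 17.6 on Bmi1 arrays, against 27.5, 24.2, 53.1 and 23.9 on Control arrays. The groups overlapped, and pair 2 ran opposite to the other pairs. Cyp27a1, the mitochondrial sterol hydroxylase that starts the alternative route, averaged 122 ± 32.4 on Bmi1 arrays and 191 ± 65.4 on Control arrays (SD, n = 4 each), a difference of -0.67 with a 95% interval of -1.29 to -0.05. Cyp39a1, an oxysterol hydroxylase, differed by -0.34 with an interval of -1.12 to 0.43.

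Cyp46a1, the cholesterol hydroxylase best known from neurons, had the largest difference in the other direction. It read 26.2, 25.7, 60.2 and 73.5 on Bmi1 arrays 1 to 4, against 9.23, 14.9, 14.96 and 30.8 on Control arrays. Each Bmi1 array was above the Control array of its number, and Control 4 overlapped the Bmi1 arrays. The difference was 1.13 with a 95% interval of 0.24 to 2.01, and the limma adjusted p was 0.443, or 0.0595 with the block. In 4 of the 12 settings with the replicate block that p passed, from 0.0176 to 0.0471, as given with the other settings at the end.

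Single tested genes represented the steroid, retinoid and unassigned families. Cyp17a1, a steroid hydroxylase and lyase of gonads and adrenal, averaged 60.8 ± 67.9 on Bmi1 arrays and 57.9 ± 31.4 on Control arrays (SD, n = 4 each), with a log2 difference of -0.38 and a 95% interval of -1.94 to 1.18. The arithmetic mean was higher and the log2 mean lower on Bmi1 arrays, because Bmi1 2, at 161, was the highest array. Cyp26a1, which breaks down retinoic acid, read 26.004, 22.2, 2.44 and 8.12 on Bmi1 arrays, against 20.6, 68.7, 20.4 and 24.8 on Control arrays. Bmi1 3 and 4 were the lowest arrays and Control 2 the highest, and the difference of -1.18 had an interval of -2.47 to 0.12. Cyp20a1, an enzyme with no settled substrate, read 384 to 483 on Bmi1 arrays and 378 to 646 on Control arrays, a difference of -0.35 with an interval of -0.82 to 0.13.

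**Figure D4:**
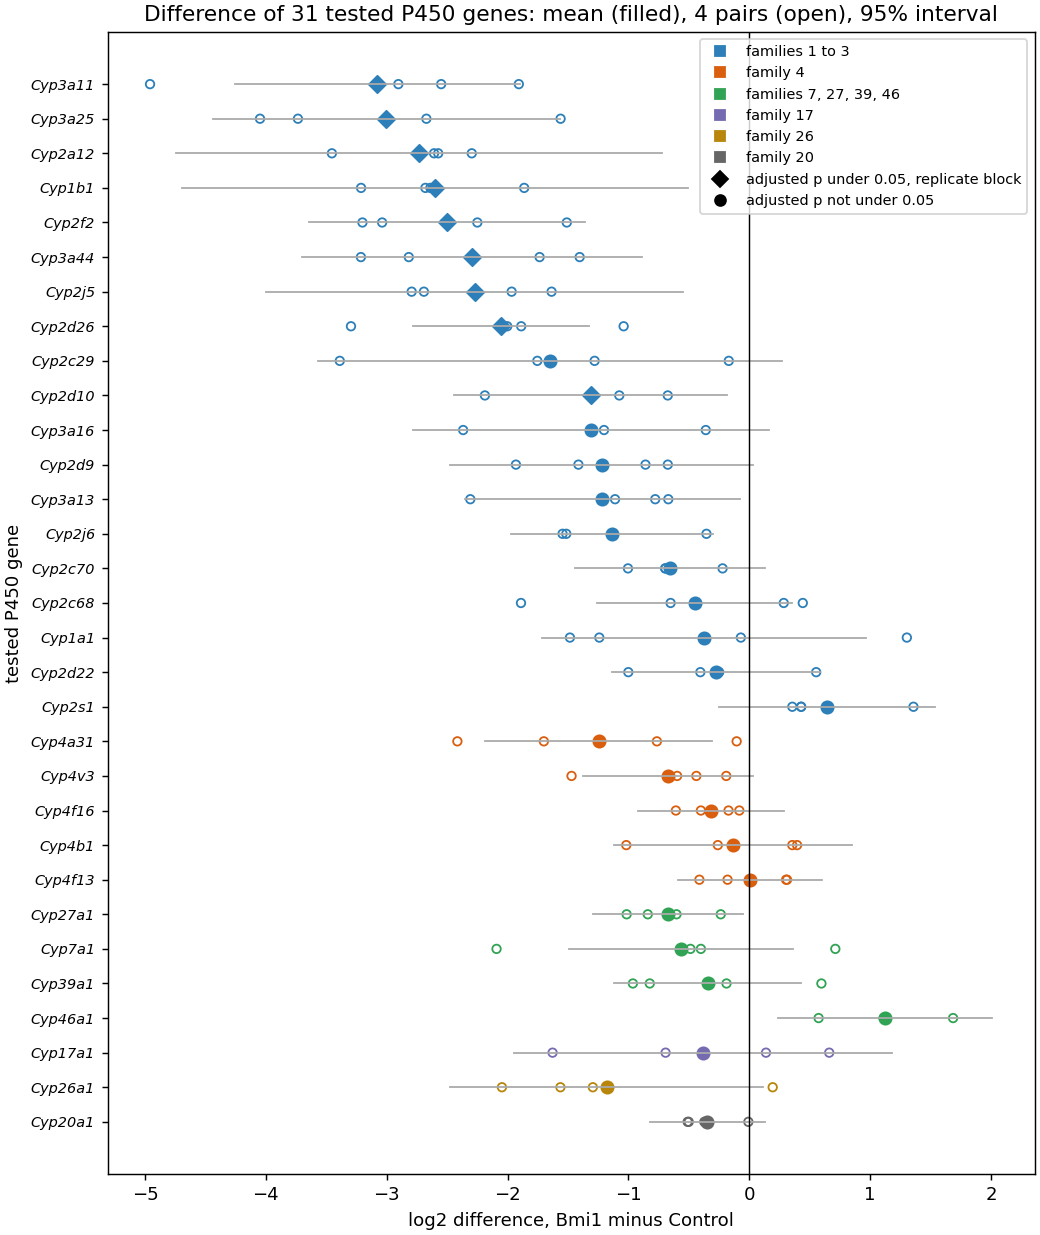
Log2 difference (Bmi1 minus Control) of each of the 31 tested P450 genes, grouped by family. Filled symbols are means, as diamonds where the adjusted p was under 0.05 with the replicate block, open circles are the 4 pairs, and lines are 95% intervals of the limma fit without a block. Families 1 to 3 run from -3.08 for Cyp3a11 to 0.64 for Cyp2s1, and Cyp46a1 stands at 1.13.

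The other 39 P450 genes did not pass the filter on low signal, so their differences were not tested. Their mean over 8 arrays was 1.92 to 25.3, and 25 of the 39 had a lower mean signal on Bmi1 arrays. Cyp1a1 lay just inside the filter, at a mean of 4.47 on the log2 scale, and Cyp2c38 just outside it, at 4.26, with the limit at 4.36. Across all 70 genes, 34 were above background on every Bmi1 array and 38 on every Control array, and Cyp2b19, Cyp2c37, Cyp2d34, Cyp4f18 and Cyp27b1 were above it on none.

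Genes typical of adult hepatocytes were among the dim ones; those named here were chosen after their values were seen. Cyp2e1, an ethanol-oxidising enzyme of pericentral hepatocytes, was above background on 0 Bmi1 arrays and 1 Control array. Cyp1a2, another pericentral gene, was above it on 1 array of each group, at means of 4.58 ± 2.81 on Bmi1 arrays and 4.23 ± 4.03 on Control arrays (SD, n = 4 each). Cyp2b10, the classical target of the constitutive androstane receptor, read 16.8, 48.5, 0.283 and 0.478 on Bmi1 arrays, against 22.9, 85.7, 20.6 and 7.24 on Control arrays. It was above background on 2 Bmi1 arrays and all 4 Control arrays, and array 2 was the highest in both groups. Cyp8b1, the enzyme that makes cholic acid, was above background on 2 Bmi1 arrays and all 4 Control arrays, at means of 8.88 ± 6.51 on Bmi1 arrays and 20.98 ± 13.6 on Control arrays.

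The P450 genes also differed between the replicates. With group in the model, 14 of the 31 tested genes differed between replicates 1 and 2 and replicates 3 and 4, beside 2670 of all 10916 tested genes. Of these 14, 12 were higher in replicates 1 and 2, led by Cyp2a12, and Cyp4f16 and Cyp46a1 were higher in replicates 3 and 4. The direction of the 2670 genes was not counted, so this split is a description and not a trait of P450 genes. Both sets of replicates hold both groups equally. Within them the median P450 difference between groups was -0.78 in replicates 1 and 2 and -1.26 in replicates 3 and 4, and over the pairs it was -0.86, -0.76, -1.93 and -0.60. Pair 3 had the largest median. With a term for the set of replicates in place of the replicate block, 7 P450 genes were lower at an adjusted p under 0.05 in limma, beside 0.879% of all tested genes, without Cyp2j5 (0.0644) and Cyp2d10 (0.162), and 0 were higher, beside 0.870%.

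The values of the 9 genes that fell follow for each set of replicates, as a description, since the arrays are those that chose them. Cyp3a11 differed by -2.23 in replicates 1 and 2 and -3.93 in replicates 3 and 4, Cyp3a25 by -2.65 and -3.36, and Cyp2f2 by -2.64 and -2.36. The span of the remaining 6 was -1.19 to -2.95 in replicates 1 and 2 and -1.43 to -2.59 in replicates 3 and 4. Among the others, 4 genes changed sign between the sets: Cyp7a1 (0.11 in replicates 1 and 2, -1.25 in replicates 3 and 4), Cyp2d22 (0.075 and -0.62), Cyp4b1 (-0.31 and 0.048) and Cyp4f13 (-0.054 and 0.067). Without pair 1, which holds the Control array of high Gapdh ratio, 6 of the 9 genes passed with the block; Cyp3a44 (adjusted p 0.0547), Cyp2d26 (0.0649) and Cyp2d10 (0.0814) did not.

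P450 enzymes need electrons, and 6 of 8 listed transfer partners were found under their symbols and tested; Por and Fdxr, reductase genes, were not analysed here. All 6 were lower by small amounts, beside 54.1% of all tested genes, from -0.10 to -0.34, with a median of -0.17, and 0 passed limma with or without the block, nor at an unadjusted p under 0.05 without it. Cyb5a, cytochrome b5, averaged 2370 ± 537 on Bmi1 arrays and 2848 ± 558 on Control arrays (SD, n = 4 each), the largest of these differences at -0.34. Of 7 genes of heme synthesis 6 were lower, with a median of -0.17, and 1 fell with the block, beside 54.1% and 1.95% of all tested genes. That gene was Alas1, the rate-limiting enzyme of heme synthesis in liver, which read 323, 652, 293 and 467 on Bmi1 arrays, against 464, 946, 394 and 604 on Control arrays. Its difference was -0.53 (SE 0.33, limma adjusted p 0.834, or 0.0358 with the block), and it passed in 3 of the 12 settings with the block. The 4 genes of heme breakdown had a median of -0.03, and Blvra, biliverdin reductase, differed by -0.29.

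Among the transcription factors that regulate P450 genes, 19 of 22 on the array were tested, 13 were lower, beside 54.1% of all tested genes, and the median was -0.14. With the block 1 of the 19 fell, beside 1.95% of all tested genes: Nr1h4, the bile acid receptor FXR. It read 169, 129.7, 21.3 and 46.2 on Bmi1 arrays, against 227, 312, 107 and 130.4 on Control arrays. The difference was -1.38 (SE 0.63, limma adjusted p 0.656, or 0.0317 with the block), and it passed in 9 of the 12 settings with the block, not without pair 2, 3 or 4. The remaining factors are given for reference and were chosen after their values were seen. Hnf4a, a master regulator of hepatocyte genes, differed by -0.25 and Ahr, the aryl hydrocarbon receptor, by -0.24. The 6 factors that were higher include Dbp, at 0.50, Foxa2, at 0.36, and Foxa1, at 0.30, while Foxa3 differed by -0.33. The pregnane X receptor gene Nr1i2 was below the filter, at 9.38 ± 5.13 on Bmi1 arrays and 18.0 ± 6.26 on Control arrays (SD, n = 4 each). Of P450 genes whose symbols the naming rule does not take, Cyp51, a cholesterol synthesis enzyme, differed by -0.31 and Ptgis, prostacyclin synthase, by 0.0033.

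Marker genes of the liver lineages differed in direction by list. All 10 tested hepatocyte markers were lower, beside 54.1% of all tested genes, with a median of -0.62, and summed to 16132 to 24367 on Bmi1 arrays and 20291 to 28702 on Control arrays. Their differences ran from -2.09 to -0.15. Pck1, an enzyme of glucose production, fell in both the unblocked and the blocked model (limma adjusted p 0.0443, or 0.0114 with the block). G6pc, of the same pathway, fell with the block (0.0114). The shares of all tested genes called lower were 0.055% in the unblocked and 1.95% in the blocked model. At an unadjusted p under 0.05 the unblocked model had 5 of the 10 lower, beside 4.32% of all tested genes. The albumin gene Alb, the defining marker, averaged 4272 ± 1309 on Bmi1 arrays and 4481 ± 1081 on Control arrays (SD, n = 4 each), a difference of -0.16. The biliary markers had a median of 0.39, with 5 of 6 above 0, while 54.1% of all tested genes were below 0. Their sum was 4113 to 4368 on Bmi1 arrays and 2190 to 3383 on Control arrays, with no overlap. Epcam (limma adjusted p 0.0222) and Cdh1 (0.0254), epithelial adhesion genes on this list, rose with the block, beside 1.36% of all tested genes. At an unadjusted p under 0.05 the unblocked model had 3 of the 6 biliary markers higher, beside 3.48% of all tested genes. The hepatoblast markers had a median of -0.19 over 4 genes, and Dlk1, the gene used to sort the cells, differed by 0.80 (adjusted p 0.0515 with the block).

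Endothelial and erythroid markers were mostly at low signal, while 4 of 7 macrophage markers passed the filter. Of 7 endothelial markers 1 was tested, Egfl7, an endothelial secreted protein gene. It rose in the blocked limma fit (adjusted p 0.0207), beside 1.36% of all tested genes. Pecam1 and Tek were at background on all 8 arrays. Macrophage markers summed to 674 to 2477 on Bmi1 arrays and 538 to 2805 on Control arrays. All 4 that were tested were lower, beside 54.1% of all tested genes, with a median of -0.39, and 0 passed either limma fit. Much of their sum is Cd14, named after its values were seen, at means of 965 on Bmi1 arrays and 1117 on Control arrays. Of 3 erythroid markers 0 passed the filter. The part of hepatocyte, biliary, endothelial or macrophage markers in the P450 differences was not tested.

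**Figure D5:**
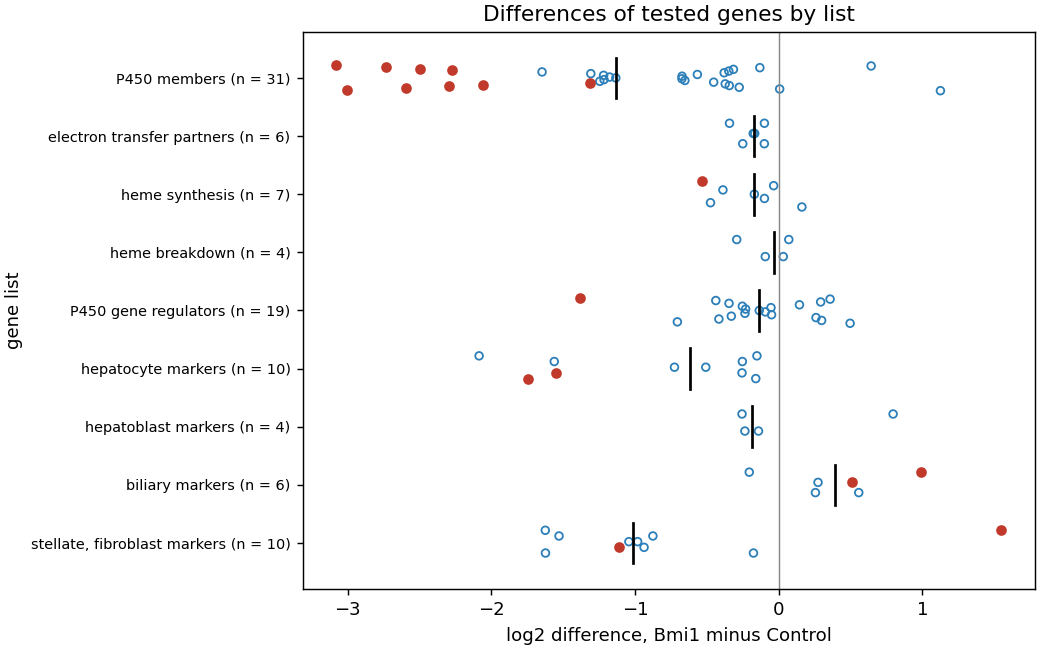
Log2 difference (Bmi1 minus Control) of every tested gene in 9 lists, with the number tested in parentheses; red filled points passed an adjusted p of 0.05 with the replicate block, open points did not, and black bars are medians. The median of the 31 P450 genes that passed the filter is -1.13 (-0.48 over all 70 with no filter). That of stellate and fibroblast markers is -1.01 and that of hepatocyte markers -0.62. Electron transfer partners and heme synthesis stand at -0.17 each, hepatoblast markers at -0.19 and P450 gene regulators at -0.14. Heme breakdown stands at -0.03 and biliary markers at 0.39.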

How the data were processed

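Gene expression was measured on 4 Bmi1 and 4 Control Affymetrix mouse arrays. The deposited values are signal intensities of 45101 probe sets; on every array the authors' intensities had a mean of 100 after trimming 2% at each end. No source used here names the software. The number of arrays limits the precision.

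Each array was taken as log2(signal + 3.78), the constant being the median divided by 4, and centred on the median of the tested genes. A gene entered with its probe set of highest mean, and genes under the 40th percentile of level were left out. Background on an array was set at the 95th percentile over 27 Bacillus control probe sets. The comparison used limma 3.58.1 under R 4.3.3 (eBayes, intensity trend; two-sided), and p-values were adjusted by Benjamini-Hochberg over 10916 genes, with a threshold of 0.05. The fit was tested on simulated data.

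The main model has no block, and the replicate number as a block was the main alternative. Same-numbered arrays of the groups correlated, after subtraction of group means, at 0.53, 0.49, 0.50 and 0.68, and 8 of 8 arrays correlated best with their own number, so the numbers pair the arrays; the series describes 4 experiments. Replicates 1 and 2 also differed from replicates 3 and 4 in both groups; the contrast of replicate 1 with 2 correlated across groups at 0.22, and that of 3 with 4 at 0.36.

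The P450 genes, gene lists and tests were chosen with earlier results of these data known. Named genes were Cyp3a11, Cyp3a25, Cyp2f2, every P450 gene called in either model, in each family the gene of highest mean and of smallest p, the genes at the filter's edge, and from each partner list every called gene or else the one of smallest p. Other genes were named after their values were seen.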

Additional observations from a re-analysis of the deposited data

Results flagged for a closer look

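In 3 of the 62 groups of 4 arrays examined (31 tested P450 genes in both groups), 1 array stood far from the rest, its gap to the nearest array as a share of the group's range on the log2 scale, being above Dixon's 95% critical value. Chance flags about 5% of groups, which is close to this number. For Cyp2c70, Bmi1 1 was the lowest array, at a ratio of 0.949, with a signal of 27.8 against 75.7 to 81.6 on the other Bmi1 arrays. For Cyp4b1, Control 2 was the highest array, at a ratio of 0.945, with 57.5 against 13.2 to 15.99 on the other Control arrays. For Cyp26a1, Control 2 was also the highest array, at a ratio of 0.874, with 68.7 against 20.4 to 24.8 on the others. None of these 3 genes passed either limma fit.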

How the results depend on the processing

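Of the P450 genes, 0 were called lower by limma without a block, and 1 with no centring, with centring on all probe sets, with a pseudocount equal to the median, or with no intensity trend (Cyp2d26, but Cyp3a11 under centring on all probe sets). Leaving out 1 array gave 0 to 1 (Cyp2d26, without Control 4). A term for the set of replicates gave 7 and the replicate block 9; with the block, 9 were called with no centring, no level filter, the smaller pseudocount or averaged probe sets, 10 with quantile normalisation or a pseudocount equal to the median, and 12 with centring on all probe sets. The block without 1 pair gave 6 to 9: 6 without pair 1, 7 without pair 2, 8 without pair 3 and 9 without pair 4. Cyp3a11, Cyp3a25, Cyp2f2, Cyp2a12 and Cyp1b1 passed in all 12 settings with the block, Cyp3a44 and Cyp2j5 in 11, Cyp2d26 in 10 and Cyp2d10 in 9. Called higher were 0 in the main model and 1, Cyp46a1, with the block under no centring, centring on all probe sets, quantile normalisation or averaged probe sets. The median difference, -1.13, was -0.48 with no level filter, with or without the block, and -0.64 to -1.28 in the remaining settings.

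Directions turned in 8 genes whose differences lay between -0.57 and 0.01. Leaving out 1 array gave -0.21 to 0.14 for Cyp4f13, -0.29 to 0.31 for Cyp4b1, -1.02 to 0.094 for Cyp17a1 and -0.75 to 0.046 for Cyp1a1. The largest single shifts came without Control 1 (Cyp4f13), Control 2 (Cyp4b1 and Cyp1a1) and Bmi1 2 (Cyp17a1). With the block, Cyp4f13 read -0.093 without pair 1 and -0.10 without pair 4, Cyp4b1 0.16 without pair 2, and without pair 3 Cyp17a1 read 0.036 and Cyp2c68 0.026. Cyp4b1 read 0.00074 with centring on all probe sets, with or without the block. In replicates 1 and 2 alone Cyp7a1 read 0.11, Cyp2d22 0.075 and Cyp4f13 -0.054, and in replicates 3 and 4 alone Cyp4b1 read 0.048 and Cyp51 0.41. The cause of these changes was not tested. Dim signals limit 39 of the 70 genes.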
